A study of Mus musculus with 13 samples.

Results

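The genes described are the 10 core and ATPase subunit genes of the BAF complex that have a row in the expression table under the symbols Smarcc1, Smarcc2, Smarca4, Smarca2, Smarcd1, Smarcd2, Smarcd3, Smarcb1, Smarce1 and Actl6a. They were chosen by symbol from 25965 rows, and all 10 passed the filter on low values that left 13406 genes for testing. RNA-seq was performed on female F1 mouse embryonic stem cells (mESCs) with an FVB/NJ mother and a CAST/EiJ father, and all 13 libraries share that hybrid genotype. Day0 is 1 library of undifferentiated cells grown in 2i medium. The other 12 libraries come from cells weaned into DME HiHi differentiation medium, virally transduced with a short hairpin RNA on day 2, placed under puromycin on day 3 and harvested on days 4, 5, 6 and 7. On each of these days there is 1 library with the nonsilencing control hairpin (Nons), 1 with the Smarcc1 hairpin Smarcc1.6 and 1 with the Smarcc1 hairpin Smarcc1.7. The comparisons address how paralogous subunits of the complex are balanced during differentiation and whether that balance moves when Smarcc1 is depleted. The sources used here do not say whether the days are separate cultures, so p-values measure only the spread between these libraries. Tests of change over days treat the libraries of 1 day as independent, so an effect shared by a day counts in each group.

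The BAF complex, a nucleosome remodeller of the SWI/SNF family, uses ATP to slide or evict nucleosomes. Its motor is either Smarca4 or Smarca2, which do not occupy the same complex. Smarcc1 and Smarcc2 form the scaffold on which the complex assembles, the Smarcd paralogues link it to transcription factors, and Smarcb1, Smarce1 and Actl6a are further subunits of the core or of the ATPase module. The form of the complex in embryonic stem cells is known for containing Smarca4 and Smarcc1 and little Smarca2 or Smarcc2, and later cell types exchange several paralogues.

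In the rows of the table (mm10), Smarcc1 lies at chr9:110132037-110240178 and Smarcc2 at chr10:128459236-128490173, both on the plus strand. Smarca4 lies at chr9:21616169-21704230 and Smarca2 at chr19:26605115-26778321, also on the plus strand. The Smarcd genes are at chr15:99702287-99713995 (Smarcd1, plus), chr11:106263179-106272972 (Smarcd2, minus) and chr5:24590818-24602012 (Smarcd3, minus). Smarcb1 is at chr10:75896769-75921617 and Smarce1 at chr11:99209047-99231017, both on the minus strand, and Actl6a at chr3:32708546-32726968 on the plus strand. Each interval covers exons and introns alike.

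The hairpin guides are shown because a guide that also matched a paralogue would change what the paralogue values mean. Each guide is 22 bases long, is written 5′ to 3′ as DNA, and has its seed (bases 2 to 8) in capitals.
Nons: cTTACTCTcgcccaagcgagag
Smarcc1.6: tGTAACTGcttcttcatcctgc
Smarcc1.7: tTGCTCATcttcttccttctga
Among GENCODE transcripts of mm10, the exact target of Smarcc1.6 is found in Smarcc1 and in 0 other genes, on the plus strand at chr9:110177472-110177493, in exon 13 of 29 and within the coding sequence. The exact target of Smarcc1.7 is likewise found in Smarcc1 alone, at chr9:110173911-110173932 in exon 11 of 29, also in the coding sequence. The Nons guide has an exact target in 0 genes.

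The closest stretches in the other ATPase and scaffold genes are set below against the targets, with matching bases in capitals.
Smarcc1.6 in Smarcc1: GCAGGATGAAGAAGCAGTTACA
Smarcc1.6 in Smarcc2: agAGGAacAAGAAGaccTgACA
Smarcc1.6 in Smarca4: GCAGGATGAgGAgGaAGaTgag
Smarcc1.6 in Smarca2: GgAGGATGAAGAAGaAGagtCc
Smarcc1.7 in Smarcc1: TCAGAAGGAAGAAGATGAGCAA
Smarcc1.7 in Smarcc2: TaAGAAGaAAaAcGcTaAGaAA
Smarcc1.7 in Smarca4: gCAGAAGaAAGAAaATGAGCgc
Smarcc1.7 in Smarca2: TCAccAGGAAGAAGATGAGgtA
For Smarcc1.6 the closest stretch matches at 14 of 22 bases in Smarcc2, 15 in Smarca4 and 16 in Smarca2. For Smarcc1.7 the matches are 15, 17 and 18 of 22. The 7-base seed match of Smarcc1.6 lies in the 3′ UTR of 9.58% of 11502 tested coding genes and of 1 of the 10 subunit genes, Smarcd2. That of Smarcc1.7 lies in 10.4% of them and also in 1 of the 10, Smarcc1 itself. That of Nons lies in 10.1% and in 0 of the 10.

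The shallowest library (Smarcc1.7 of day 5) held 13993440 mapped reads and the deepest (Smarcc1.6 of day 4) 63548092, and the subunit gene with the fewest reads, Smarcd3, had between 60 and 535 of them. The libraries fell into 2 sets that cross the groups. In Day0 and the 3 day 6 libraries 85.3% to 86.5% of mapped reads lay in genes, against 91.6% to 92.6% in the other 9, and these are called read-assignment sets here. Hairpins were compared with Nons within a day and so within a set, whereas changes over days cross the sets and are given with and without day 6. Day 6 stood off from the average of its neighbouring days, with one sign and by 1 log2 unit or more in each group, for 4.17% of the 13406 tested genes and, among the 10 subunit genes, for Smarce1. Summed pluripotency markers (8 of 8 in the table, including Pou5f1, Sox2 and Nanog) stood at 4612 CPM at Day0 and between 1560 and 3235 CPM in the other libraries.

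The 4 most abundant subunit genes were at high and similar levels per length of merged exons. Levels of different genes are compared as log2 of CPM (reads scaled by the number of mapped reads in the library) per kilobase of merged GENCODE exons, as the mean ± SD of the 4 Nons libraries. Smarcc1 stood at 5.56 ± 0.55, Smarca4 at 5.54 ± 0.22, Actl6a at 5.48 ± 0.40 and Smarcd1 at 5.08 ± 0.49 (SD, n = 4 each), so that these neighbours did not differ beyond their spread over days. Smarcd2 followed at 4.19 ± 0.58, Smarce1 at 3.65 ± 0.65 and Smarcb1 at 3.49 ± 0.12 (SD, n = 4 each). Smarcd2 and Smarcb1 both lay within the SD of Smarce1. Smarcc2 came lower at 2.08 ± 0.38, Smarcd3 at 0.35 ± 0.38 and Smarca2 lowest at -1.16 ± 0.55 (SD, n = 4 each). Over the 12 libraries of days 4 to 7 the highest Smarcc2 value, 2.70, was under the lowest Smarcb1 value, 3.19, but above the lowest Smarce1 value, 2.64. The highest Smarcd3 value, 0.89, was under the lowest Smarcc2 value, 1.38. Smarcd3 and Smarca2 overlapped. The order at the top and in the middle depends on the gene model. With the length of the longest coding transcript Smarcb1 moved from 3.49 to 5.75 and from place 7 to place 3. Actl6a moved from 5.48 to 6.43 and from place 3 to place 1, and Smarcd1, at 5.36, from place 4 to place 5.

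Smarcc1, the target of both hairpins and the more abundant scaffold paralogue, stood at 8.01 log2 CPM in the Day0 library. In Nons its level was 9.10, 8.87, 8.28 and 7.89 on days 4, 5, 6 and 7. Under Smarcc1.6 the 4 values were 7.42, 7.40, 7.28 and 7.28, and under Smarcc1.7 they were 7.96, 7.78, 7.17 and 7.51. Every hairpin library was under the Nons library of its day, but the Nons level fell toward the hairpin levels, so that day 7 Nons lay below day 4 Smarcc1.7. As a share of same-day Nons, Smarcc1 stood at 31.2%, 36.2%, 50.2% and 65.5% under Smarcc1.6 and at 45.4%, 47.2%, 46.3% and 76.8% under Smarcc1.7. The mean difference from Nons was -1.06 log2 units over the 8 libraries (exact permutation test, two-sided, p = 0.0123, the smallest that the 81 arrangements allow). In limma the same difference had an SE of 0.14 and an adjusted p of 0.00232. The slope of Smarcc1 on day was 0.30 log2 units per day higher in hairpin libraries than in Nons, with an unadjusted limma p of 0.0245 and an adjusted p of 0.831. Smarcc1 has 1 annotated processed pseudogene, Gm7004, which shares 185 stretches of 50 bases with its coding transcripts and has no row of its own. The part of this copy in the Smarcc1 values was not tested.

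**Figure D1:**
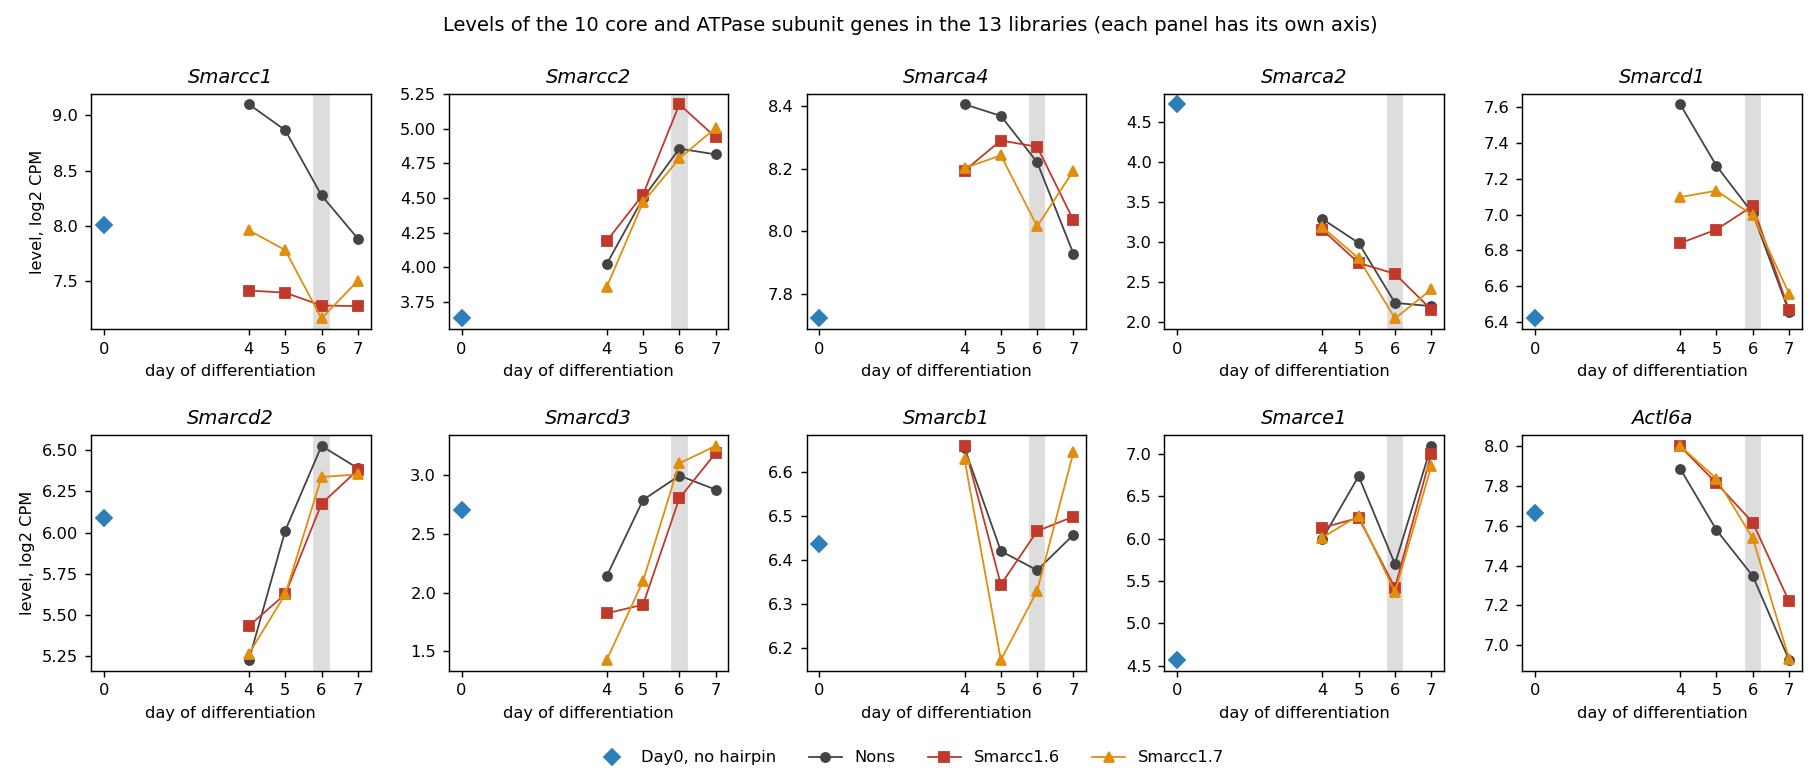
Level of each subunit gene (log2 CPM, vertical axis, scaled separately in each panel) against day of differentiation, with 1 point per library. Diamonds are Day0, circles Nons, squares Smarcc1.6 and triangles Smarcc1.7, and the grey band marks day 6, which shares its read assignment with Day0. Smarcc1 is under Nons in all 8 hairpin libraries, whereas the other 9 genes lie within -0.89 and 0.37 log2 units of same-day Nons.

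Smarcc2, the alternative scaffold subunit, was not detectably raised when Smarcc1 was low. Its log2 CPM was 3.63 at Day0 and 4.02, 4.50, 4.86 and 4.81 in Nons on days 4, 5, 6 and 7. Under Smarcc1.6 it was 4.19, 4.53, 5.18 and 4.94, and under Smarcc1.7 it was 3.86, 4.47, 4.79 and 5.01. All 4 Smarcc1.6 libraries were thus above same-day Nons, by 0.03 to 0.32, while 3 of 4 Smarcc1.7 libraries were below it. The mean difference of both hairpins from Nons was 0.07 log2 units, with a 95% interval of -0.13 to 0.27 and a limma adjusted p of 0.66. For Smarcc1.6 alone it was 0.16 (interval -0.05 to 0.37) and for Smarcc1.7 alone -0.02 (interval -0.23 to 0.19), and the difference between the hairpins, -0.18 (interval -0.39 to 0.03), did not pass the test (adjusted p = 0.989).

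The Smarcc1 to Smarcc2 balance therefore moved with Smarcc1. Per kilobase, Smarcc1 exceeded Smarcc2 14.8-fold at Day0 and 23.9-, 14.6-, 7.59- and 5.96-fold in Nons on days 4 to 7. Under Smarcc1.6 the excess was 6.64-, 5.19-, 3.05- and 3.58-fold, and under Smarcc1.7 it was 12.2-, 7.05-, 3.69- and 4.01-fold. Smarcc1 thus remained the more abundant scaffold transcript in each of the 13 libraries, also where it was the target. The log2 balance was lower than same-day Nons in 8 of 8 hairpin libraries, with a mean difference of -1.35 ± 0.47 under Smarcc1.6 and -0.91 ± 0.23 under Smarcc1.7 (SD, n = 4 days each). Over both hairpins it was -1.13 (exact permutation test, two-sided, p = 0.0123, Benjamini-Hochberg adjusted 0.0198 over the 8 balance tests). Smarcc1, the hairpin target, itself differed by -1.06, so this test largely repeats that of the Smarcc1 level. Smarcc2 made up 4.02%, 6.40%, 11.6% and 14.4% of the per-kilobase sum of the pair in Nons on days 4 to 7, 13.1%, 16.1%, 24.7% and 21.8% under Smarcc1.6, and 7.58%, 12.4%, 21.3% and 20.0% under Smarcc1.7. That larger share came with a smaller sum, since the pair together reached 34.4% to 71.8% of same-day Nons under Smarcc1.6 and 47.2% to 82.2% under Smarcc1.7.

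**Figure D2:**
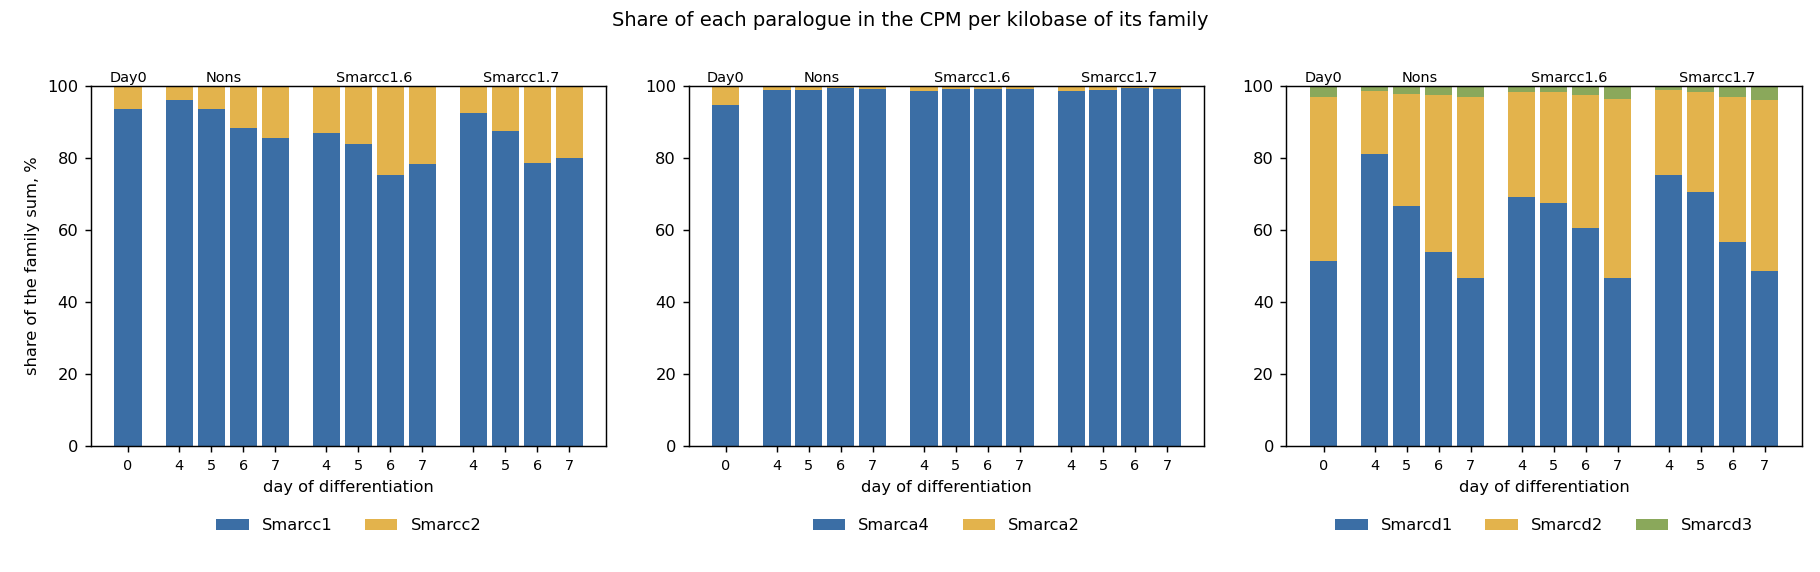
Share of each paralogue (percent, vertical axis from 0 to 100) in the summed CPM per kilobase of merged exons of its family, with 1 bar per library ordered by group and day. In the left panel the Smarcc2 share is larger in each hairpin library than in same-day Nons. In the middle panel Smarca2 is at most 1.38% on days 4 to 7, and in the right panel the Smarcd2 share grows from day 4 to day 7 in each group.

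Over days 4 to 7 the balance also shifted toward Smarcc2 in the joint fit of all groups, 8 of whose 12 libraries carried a Smarcc1 hairpin. In this period, with the 3 groups fitted together, Smarcc1 fell by 0.23 log2 units per day (SE 0.06, limma adjusted p = 0.00933) and Smarcc2 rose by 0.31 per day (SE 0.05, adjusted p = 3.42e-04). The call of Smarcc1 was lost without day 4 (-0.23 per day, adjusted p = 0.0881). The log2 balance of Smarcc1 over Smarcc2 changed by -0.54 per day (exact permutation test, two-sided, p = 7.23e-04, adjusted 0.00193) and by -0.49 per day without day 6 (p = 0.00463). In Nons alone it changed by -0.70 per day (exact permutation p = 0.0833, the smallest that 24 arrangements allow). The per-kilobase balance was 14.8-fold at Day0 and 23.9-fold on day 4 of Nons, with 1 library each from different read-assignment sets. Within the set of Day0, it was 7.59-fold on day 6 of Nons. Between Day0 and day 6 Nons, which share their read assignment, Smarcc2 was 2.34-fold and Smarcc1 1.20-fold higher on day 6, with 1 library each and no test.

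The ATPase pair was dominated by Smarca4 throughout. Smarca4, the ATPase of the stem cell form of the complex, stood at 7.72 log2 CPM in the Day0 library and at 8.41, 8.37, 8.22 and 7.93 in Nons on days 4 to 7. The Smarcc1.6 libraries had 8.19, 8.29, 8.27 and 8.03, and under Smarcc1.7 it was 8.20, 8.24, 8.02 and 8.19. The groups overlapped, with hairpin libraries below Nons on days 4 and 5 and above it on day 7. The mean difference from Nons was -0.05 log2 units, with an interval of -0.20 to 0.10 and a limma adjusted p of 0.685. Its change per day, -0.08 (interval -0.16 to 0.00188), did not pass the test (adjusted p = 0.0838), although it did after leaving out day 7 of Smarcc1.7 (-0.10, adjusted p = 0.0387) or with TMM scaling (-0.09, adjusted p = 0.0421).

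Smarca2, the alternative ATPase, was highest in undifferentiated cells. The log2 CPM was 4.72 at Day0, above all 12 later libraries, and 3.29, 2.99, 2.24 and 2.20 in Nons on days 4 to 7. With Smarcc1.6 it stood at 3.15, 2.74, 2.60 and 2.15, and under Smarcc1.7 it was 3.19, 2.79, 2.04 and 2.41. Day 6 Nons was at 0.179 of the Day0 level, a comparison within the same read-assignment set with 1 library each. Smarca2 fell by 0.34 log2 units per day over days 4 to 7 (SE 0.06, limma adjusted p = 8.13e-04) and by 0.32 without day 6, and without day 4 the change was -0.29 with an adjusted p of 0.0595. Its difference from Nons under the hairpins was -0.04 (interval -0.32 to 0.23, adjusted p = 0.861). Annotated genes on the opposite strand, Gm20616 and 4931403E22Rik, overlap the Smarca2 row, which includes introns. Overlap of exons was not examined. Without the strand setting, reads from any shared exon cannot be told apart from those of Smarca2.

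Per kilobase of merged exons Smarca4 exceeded Smarca2 17.6-fold at Day0, 76.5-fold in Nons on day 4 and 117-fold in Nons on day 7. With the longest coding transcript in place of merged exons these folds were 7.42, 32.3 and 49.3, because the merged exons of Smarca2 (14269 bases over 46 transcripts) are longer than its longest transcript (5921 bases). The log2 balance of Smarca4 over Smarca2, in which the length cancels between libraries, rose by 0.26 per day (exact permutation test, two-sided, p = 0.00203, adjusted 0.00405) and by 0.24 without day 6 (p = 0.00926). Without day 4 it was 0.17 per day and no longer passed the test (exact permutation p = 0.102). Between hairpins and Nons the balance differed by -0.0070 (exact permutation p = 0.926), with 2 of 4 days higher under each hairpin.

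**Figure D3:**
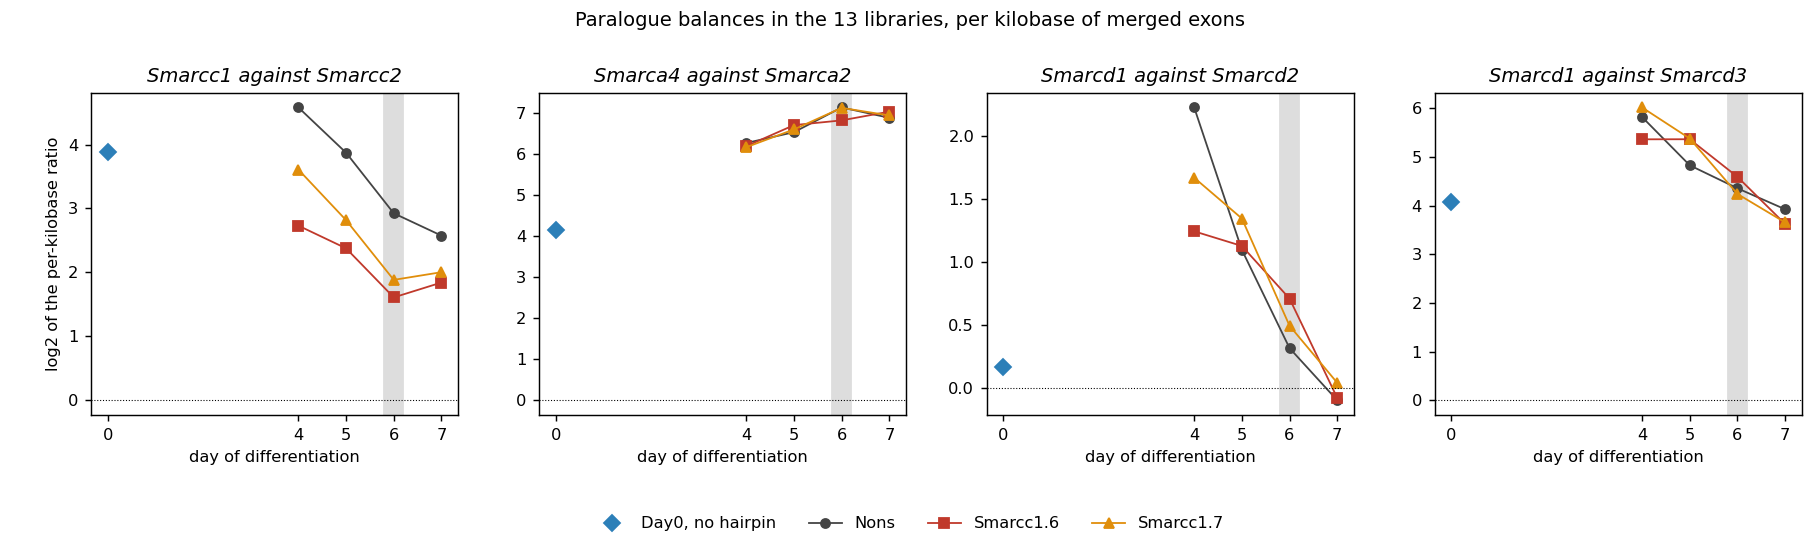
Log2 of the per-kilobase ratio of paralogues (vertical axis, merged exons) against day of differentiation, with 1 point per library and symbols as in the plot of levels by day. The dotted line marks equal levels. Smarcc1 against Smarcc2 is lower in all 8 hairpin libraries than in same-day Nons, Smarca4 against Smarca2 rises from Day0 to every later library, and Smarcd1 against Smarcd2 approaches equality on day 7.

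In the Smarcd family Smarcd1 gave way to Smarcd2 over days 4 to 7. Smarcd1, the most abundant of the 3 in day 4 cells, stood at 6.42 log2 CPM in the Day0 library and at 7.62, 7.27, 7.01 and 6.46 in Nons on days 4 to 7. Values under Smarcc1.6 were 6.84, 6.92, 7.05 and 6.47, and under Smarcc1.7 it was 7.10, 7.13, 7.00 and 6.56. Hairpin libraries were below Nons on days 4 and 5, by up to 0.78 on day 4, and near it on days 6 and 7. The mean difference was -0.21 (interval -0.43 to 0.02, limma adjusted p = 0.213), and the slope on day was 0.24 per day higher in hairpin libraries (unadjusted p = 0.0324, adjusted p = 0.865). Smarcd1 fell by 0.22 per day (SE 0.06, adjusted p = 0.00612), and without day 7 the change was -0.08 with an adjusted p of 0.318. Gm17349 overlaps the Smarcd1 row on the opposite strand, with the same limit on shared exons as for Smarca2.

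Smarcd2 rose as Smarcd1 fell. Its log2 CPM was 6.09 at Day0 and 5.23, 6.01, 6.53 and 6.39 in Nons on days 4 to 7. Under Smarcc1.6 it was 5.43, 5.63, 6.17 and 6.38, and under Smarcc1.7 it was 5.26, 5.62, 6.34 and 6.35. All 3 groups were lowest on day 4, below Day0. Smarcd2 rose by 0.38 log2 units per day (SE 0.05, limma adjusted p = 1.05e-04) and by 0.35 without day 6, and differed from Nons under the hairpins by -0.14 (interval -0.31 to 0.04, adjusted p = 0.285).

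Smarcd3, the least abundant of the family and the paralogue known from heart and skeletal muscle, followed the same course from a lower level. The log2 CPM was 2.70 at Day0 and 2.14, 2.79, 3.0 and 2.88 in Nons on days 4 to 7. The Smarcc1.6 libraries had 1.82, 1.90, 2.80 and 3.19, and under Smarcc1.7 it was 1.43, 2.10, 3.1 and 3.25. Hairpin libraries were below Nons on days 4 and 5 and above it on day 7, and the spread over days was larger than the mean difference of -0.25 (interval -0.63 to 0.13, limma adjusted p = 0.374). Its slope was 0.33 per day higher in hairpin libraries (unadjusted p = 0.0392, adjusted p = 0.892). Smarcd3 rose by 0.46 per day (SE 0.08, adjusted p = 6.71e-04) and by 0.43 without day 6. Chpf2 overlaps its row on the opposite strand, with the same limit on shared exons as for Smarca2.

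Smarcd1 made up 51.3% of the per-kilobase Smarcd sum at Day0, 81.2% in Nons on day 4 and 46.8% on day 7. Smarcd2 made up 45.6%, 17.4% and 50.1% of it in the same libraries, and Smarcd3 3.07%, 1.44% and 3.08%. Day0 is 1 library with no hairpin and belongs to another read-assignment set than days 4 and 7. A change between them cannot be told apart from these differences. In day 6 Nons, which is in the set of Day0, Smarcd1 made up 54.0% and Smarcd2 43.4%. On day 4 the Smarcd1 share was 69.1% under Smarcc1.6 and 75.2% under Smarcc1.7, both below Nons, and on day 7 it was 46.8% and 48.7%. The log2 balance of Smarcd1 over Smarcd2 changed by -0.60 per day (exact permutation test, two-sided, p = 1.45e-04, the smallest possible, adjusted 0.00116) and by -0.59 without day 6 (p = 0.00463). That of Smarcd1 over Smarcd3 changed by -0.68 per day (exact permutation p = 2.89e-04, adjusted 0.00116) and by -0.68 without day 6 (p = 0.00926). Under the hairpins the differences from Nons were -0.07 (exact permutation p = 0.79) and 0.05 (p = 0.802). For Smarcd1 over Smarcd2 the day 4 differences were -0.98 under Smarcc1.6 and -0.56 under Smarcc1.7, the other 6 were between 0.02 and 0.39, and without day 4 the mean was 0.17 (exact permutation p = 0.0741).

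Of the subunits without a paralogue here, Actl6a, an actin-related protein of the ATPase module, was higher in each hairpin library than in same-day Nons. Its log2 CPM was 7.67 at Day0 and 7.89, 7.58, 7.35 and 6.93 in Nons on days 4 to 7. With Smarcc1.6 it stood at 8.0, 7.81, 7.62 and 7.22, and under Smarcc1.7 it was 8.0, 7.84, 7.54 and 6.93. All 8 hairpin libraries were above same-day Nons, by 0.0067 to 0.29, and the mean difference of 0.18 (interval 0.06 to 0.31) did not pass the test (limma adjusted p = 0.0578). For Smarcc1.6 it was 0.23 (adjusted p = 0.0513), which passed on log2(CPM + 1) (0.0499) and with voom weights (0.0488), and for Smarcc1.7 it was 0.14 (adjusted p = 0.237). Without day 7 it was 0.20 with an adjusted p of 0.0293, and without day 7 of Smarcc1.7 it was 0.22 with an adjusted p of 0.0147. Actl6a fell by 0.31 per day (SE 0.03, adjusted p = 2.17e-05) and by 0.32 without day 6. Summed pluripotency markers, which were higher at Day0 than later, were higher than same-day Nons in 6 of the 8 hairpin libraries (mean log2 difference 0.24). On days 4 to 7 Pou5f1 and Tdgf1 made up most of that sum, whereas at Day0 Nanog was the highest (10.5 log2 CPM). Apart from Pou5f1 and Tdgf1, the genes of the list differed more from Nons. Sox2, Zfp42, Esrrb, Klf4 and Dppa3, 5 of the 8 listed genes, were higher in 8 of 8 hairpin libraries, beside 15.0% of tested genes with all 8 differences of one sign. Their mean differences ran from 0.69 (Sox2) to 1.40 (Klf4) log2 units, and Klf4 on day 4 stood at 3.76 in Nons, 6.29 under Smarcc1.6 and 5.67 under Smarcc1.7. Nanog was higher in 7 of 8 (mean 0.74), by up to 2.37. Summed mesoderm markers (T, Mixl1, Mesp1 and Eomes, 4 of 4 found) were lower than same-day Nons in 6 of 8 (mean -1.37, from 32.7 to 333 CPM in Nons and 20.6 to 68.1 CPM in hairpin libraries). The part of both marker groups in the hairpin differences of the subunit genes, Smarcc1 included, was not tested. Mrpl47 overlaps the Actl6a row on the opposite strand, with the same limit on shared exons as for Smarca2.

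Smarcb1, a core subunit best known as a tumour suppressor, spanned the narrowest range of the 10 over the 13 libraries. The log2 CPM was 6.44 at Day0, between 6.38 and 6.65 in Nons, between 6.34 and 6.66 under Smarcc1.6 and between 6.17 and 6.64 under Smarcc1.7. The groups overlapped, and neither the difference from Nons (-0.0091, interval -0.14 to 0.13, limma adjusted p = 0.943) nor the change per day (-0.03, interval -0.12 to 0.07, adjusted p = 0.633) passed the test. Without day 4 the change per day was 0.11 (adjusted p = 0.109).

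Smarce1, a core subunit with an HMG domain, could not be followed across the read-assignment sets. Its log2 CPM was 4.57 at Day0 and 6.00, 6.74, 5.70 and 7.10 in Nons on days 4 to 7. Values under Smarcc1.6 were 6.13, 6.25, 5.42 and 7.01, and under Smarcc1.7 it was 6.01, 6.27, 5.37 and 6.86. Relative to the mean of days 5 and 7, day 6 stood at -1.22 in Nons, -1.21 under Smarcc1.6 and -1.20 under Smarcc1.7 (log2 units). Smarce1 has 3 annotated processed pseudogenes (Gm8494, Smarce1-ps1 and Gm4811) that share at least 100 stretches of 50 bases with its coding transcripts, more than any of the other 9 genes, and none of the 3 has a row in the table. The part of these copies in the day 6 values was not tested. Its change per day was 0.19 (SE 0.14, limma adjusted p = 0.272) with day 6 and 0.31 (SE 0.04, adjusted p = 3.25e-04) without it, and without day 7 it was -0.28 (adjusted p = 0.144). Within days, the mean difference from Nons was -0.22 (interval -0.39 to -0.05, adjusted p = 0.088), with 6 of 8 hairpin libraries lower, and without day 4 it was -0.32 with an adjusted p of 0.0245.

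**Figure D4:**
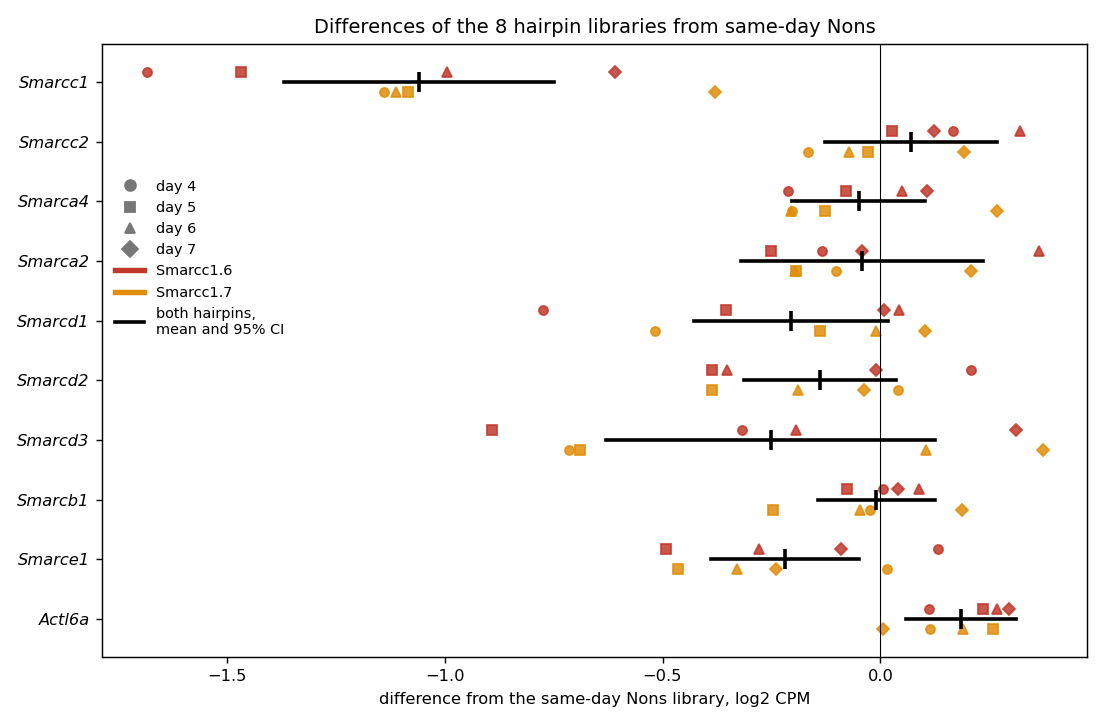
Difference of each hairpin library from the Nons library of its day (log2 CPM, horizontal axis) for the 10 subunit genes. Red points are Smarcc1.6, orange points Smarcc1.7, symbols give the day, and the black bar is the limma mean of both hairpins with its 95% interval. The interval of Smarcc1, -1.37 to -0.75, is far below 0, and that of Actl6a, 0.06 to 0.31, lies above it.

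Across the set, knockdown called 1 of the 10 subunit genes, Smarcc1, beside 11.6% of the 13406 tested genes (limma, adjusted p under 0.05). Each hairpin against Nons, in the fit of all 12 libraries, also called 1 of 10, again Smarcc1, beside 9.30% of genes under Smarcc1.6 and 2.45% under Smarcc1.7. Fits of 1 hairpin with Nons only called 0 of the 10, with Smarcc1 at a limma adjusted p of 0.0532 for Smarcc1.6 and 0.0538 for Smarcc1.7. Without day as a factor the knockdown call of Smarcc1 was lost as well (adjusted p = 0.388). In the fit of 12 libraries the call for Smarcc1.7 (-0.93, adjusted p = 0.0187) was lost without day 5 (adjusted p = 0.146) or day 6 (adjusted p = 0.152). It was also lost on leaving out Nons of day 5 or 6 (0.0666 and 0.0574) or Smarcc1.7 of day 4, 5, 6 or 7 (0.0558, 0.0814, 0.106 and 0.0616, limma adjusted p). The median difference under knockdown was -0.09 for the 10 genes and -0.01 for all tested genes. All 8 same-day differences had the same sign for 2 of the 10, Smarcc1 and Actl6a, beside 15.0% of tested genes. Between the hairpins 0 of the 10 differed, as did 0% of all tested genes (0 genes, with 530 at an unadjusted limma p under 0.05). The interaction of knockdown with day called 0% of genes and 0 of the 10 (745 genes and 3 of the 10, Smarcc1, Smarcd1 and Smarcd3, at an unadjusted p under 0.05).

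More of the set changed over days than under knockdown in the joint fit, where 8 of 12 libraries carried a Smarcc1 hairpin. Over days 4 to 7, 7 of the 10 subunit genes changed, 3 upward (Smarcd3, Smarcd2 and Smarcc2) and 4 downward (Smarca2, Actl6a, Smarcc1 and Smarcd1), beside 60.5% of all tested genes, so that the share of the 10 is near the background. Without day 6 there were 8 of 10, with Smarce1 added upward, beside 62.4% of tested genes. In Nons alone 3 of the 10 were called, beside 1620 of the 13406 tested genes. The calls lost were those of Smarcc2 (0.27 per day, limma adjusted p = 0.122), Smarcd2 (0.40, adjusted p = 0.0884), Smarcd3 (0.24, adjusted p = 0.287) and Smarca2 (-0.40, adjusted p = 0.107). The paralogues within a family went in opposite directions for Smarcc1 and Smarcc2 and for Smarcd1 and the other Smarcd genes, and for Smarca4 and Smarca2 the balance moved through Smarca2. Fewer cells of a type and less RNA per cell cannot be told apart in these bulk libraries.

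**Figure D5:**
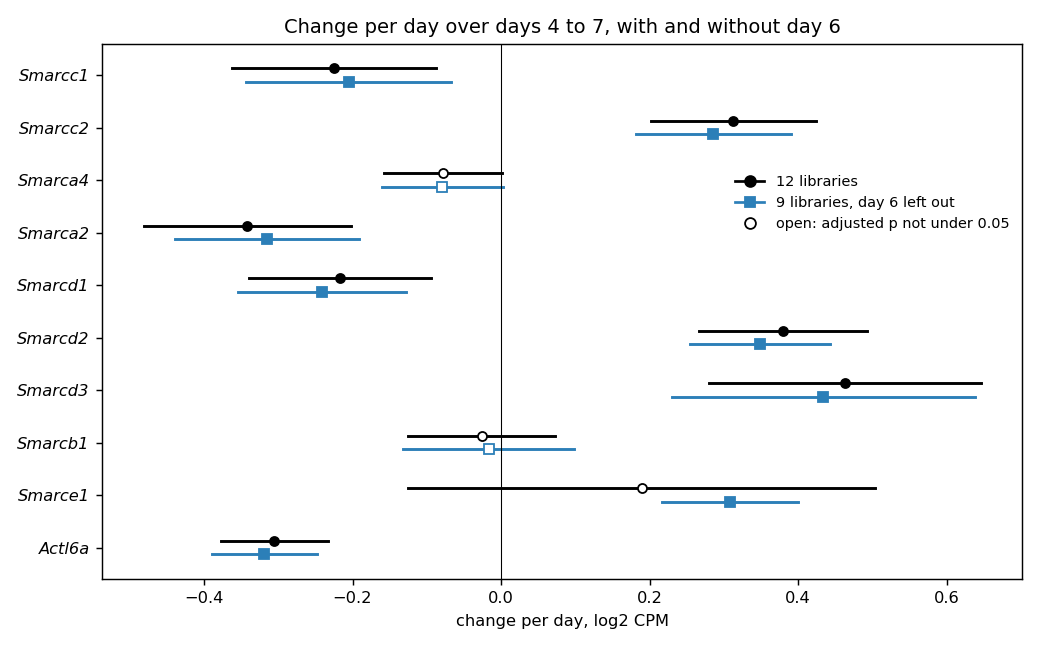
Change per day over days 4 to 7 (log2 CPM, horizontal axis) with 95% interval from limma for the 10 subunit genes. Black circles use 12 libraries, blue squares the 9 libraries without day 6, and open symbols have an adjusted p that is not under 0.05. Smarce1 is the gene whose call depends on day 6, and 7 genes are called both ways.

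Other subunit genes of BAF and its relatives were read from a list of 23 symbols, of which 20 had a row and 18 passed the filter. Actl6b, the neuronal counterpart of Actl6a, and Dpf3 were found but fell below the filter. Under knockdown 1 of the 18, Bcl7c, was called, at -0.36 log2 units (SE 0.08, limma adjusted p = 0.0148), beside 11.6% of tested genes. Under Smarcc1.6 2 were called, beside 9.30%, with Bcl7c at -0.37 (adjusted p = 0.035) and Dpf1, a PHD finger subunit found in the neuronal complex, at 0.68 (adjusted p = 0.0434, named after its values were seen), and under Smarcc1.7 0 were called, beside 2.45% (3 of the 18 at an unadjusted limma p under 0.05). The median difference of the 18 under knockdown was -0.12, beside -0.01 for all tested genes. Over days 5 of the 18 rose and 6 fell, beside 60.5% of tested genes called, so that this share too is near the background. The largest changes were in Dpf1 (-1.15 per day, adjusted p = 1.89e-06), Bcl11a (-0.69 per day, adjusted p = 0.00226), a zinc finger subunit, and Bcl7c (0.46 per day, adjusted p = 2.11e-05).

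The genes whose profile over the 13 libraries was closest to that of a paralogue were found by the root mean square difference of log2 CPM after centring each gene, given without a test. For Smarcc1, whose own SD over libraries was 0.59, these were Cachd1, Pvrl1 and Tlk1, at 0.31, 0.34 and 0.41. For Smarcc2 (SD 0.46) they were Traf2, Lmf2 and Casd1, at 0.12, 0.16 and 0.16. For Smarca4 (SD 0.18) they were Dot1l, the histone H3 lysine methyltransferase, Rbm33 and Polr3g, a subunit of RNA polymerase III, at 0.07, 0.09 and 0.09. For Smarca2 (SD 0.69) they were mt-Co1, a mitochondrial subunit of cytochrome oxidase, Scd1, a fatty acid desaturase, and Sdcbp2, at 0.20, 0.21 and 0.22.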

How the data were processed

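RNA-seq was performed on 13 libraries of female mESCs. TruSeq libraries were read from both ends on a NextSeq500, and reads were trimmed with trim_galore and aligned to mm10 with strain-variable positions masked. The submitters' processing notes name TopHat2 2.0.12 and bcl2fastq, whereas the methods name tophat or hisat2. The authors counted reads per gene in Seqmonk and deposited log2 values of CPM. Strand setting and annotation release were not given in the sources used here. The deposited values fell on whole-read steps (100% of low values, tolerance 0.1 reads), with 0 reads written as 0.9, and depth was recovered from these steps.

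Groups and days came from the sample titles, with 1 library per group and day. The 13406 genes whose log2 CPM averaged 0 or more over 12 libraries were fitted with limma 3.58.1 in R 4.3.3 (trend, Benjamini-Hochberg, threshold 0.05), with no further pseudocount. Knockdown was fitted with day as a factor, and change per day with group as a factor. The 4 paralogue balances and the Smarcc1 level were tested with exact two-sided permutation tests, over 81 arrangements within day or 13824 of days within groups. Days were permuted separately in each group. Permutation and limma p-values for change per day may therefore be too small where libraries of a day share an effect, as for Smarce1 on day 6. Day0 entered no test. Lengths, overlaps and transcript sequences came from GENCODE M21 (mm10), and hairpin guides from the study's oligonucleotide list. Models were tested on simulated data. Members, lists and naming rule (all 10 genes, other subunits called under knockdown, the 3 largest called changes per day, the 3 closest profiles of 4 paralogues) were chosen with earlier results of these data known. Alternatives covered filters, pseudocount, TMM scaling, trend, day block, single hairpins, libraries and days left out and transcript length. Python 3.11.15 was used. Allele-specific values were not analysed here.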

Additional observations from a re-analysis of the deposited data

How the results depend on the processing

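With 1 hairpin alone against Nons the exact test has 16 arrangements and cannot go below p = 0.125, and with Nons alone over days it has 24 and cannot go below 0.0833, so these values bear on size and direction only. Smarcc1 differed from Nons by -1.19 for Smarcc1.6 and -0.93 for Smarcc1.7, and the Smarcc1 to Smarcc2 balance by -1.35 and -0.91. In Nons alone the balances changed per day by -0.70 (Smarcc1 to Smarcc2), 0.24 (Smarca4 to Smarca2), -0.78 (Smarcd1 to Smarcd2) and -0.62 (Smarcd1 to Smarcd3). Differences near 0 changed sign, with Smarca4 to Smarca2 at 0.0033 and Smarcd1 to Smarcd2 at 0.0020 for Smarcc1.7 alone, Smarcd1 to Smarcd3 at -0.0046 on log2(CPM + 1), Smarcb1 at 0.015 for Smarcc1.6 alone and Smarcc2 at -0.019 for Smarcc1.7 alone. The cause was not tested.

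Genes called for knockdown were 4 without the day block, 57 for Smarcc1.6 alone with Nons and 0 for Smarcc1.7 alone (2363 at an unadjusted limma p under 0.05). Without the day block Smarcc1.6 and Smarcc1.7 each called 0 (353 and 238 unadjusted). Smarcc1.7 called 188 with the filter at 2 and 145 without the trend, where Smarcc1 just missed the threshold (adjusted p = 0.0507). The hairpins differed at 2 genes with no filter, and change per day called 1620 in Nons alone. Leaving out each day or library in turn gave 287 to 2003 genes for knockdown, 178 to 1694 for Smarcc1.6, 1 to 1052 for Smarcc1.7 and 6679 to 8371 for change per day. Counts for knockdown moved by over 1.5 times without day 5 (386) or day 6, Nons of day 5 (611) or day 6 (624), or Smarcc1.6 of day 5 (1002) or day 6 (952). The lowest counts came without day 6 (knockdown, 287) and without day 5 (Smarcc1.6, 178), and Smarcc1.7 called 1 without either.

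Leaving out each day or library gave -1.25 to -0.94 for Smarcc1, and for differences from Nons -0.049 to 0.045 (Smarca4 to Smarca2), -0.18 to 0.17 (Smarcd1 to Smarcd2) and -0.12 to 0.16 (Smarcd1 to Smarcd3). The change per day of Smarca4 to Smarca2 ranged from 0.17 to 0.41. Signs also turned for Smarca2 (-0.11 to 0.016 for knockdown, -0.16 to 0.062 for Smarcc1.6, -0.17 to 0.034 for Smarcc1.7), Smarca4 (-0.13 to 0.0023 for knockdown, -0.11 to 0.026 for Smarcc1.6), Smarcb1 (-0.050 to 0.042, -0.026 to 0.065 and -0.11 to 0.038 for the same 3 comparisons, -0.13 to 0.11 per day), Smarcc2 (-0.095 to 0.032 for Smarcc1.7), Smarcd1 (-0.23 to 0.0054 for Smarcc1.7) and Smarce1 (-0.28 to 0.31 per day). Over all alternatives, of 940 values for single subunit genes, 870 kept direction and side of the threshold.

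Per kilobase levels in Nons with another gene model moved by more than their SD for Smarca2 (0.11 with the longest or the longest coding transcript), Smarcd3 (0.79 and 1.91), Smarce1 (4.74 and 4.84), Actl6a (6.43 with both) and Smarcb1 (5.75 with the longest coding transcript). The coding length and limma voom weights on recovered reads were chosen after seeing the data, and voom called 1465 genes for knockdown. The planned count tests were not run, and voom on recovered reads was run in their place. Hairpin and Nons libraries are paired by day, which is in the fits and the permutation tests.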

Other observations

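Markers of other cell types were summed as CPM in each library. Epiblast genes after exit from pluripotency (Fgf5, Otx2, Dnmt3b and Pou3f1) stood at 133 CPM at Day0 and between 546 and 1449 CPM in Nons, and were higher than same-day Nons in 6 of 8 hairpin libraries (mean log2 difference 0.20). The trophoblast sum (Cdx2, Krt8, Krt18 and Elf5) ranged from 22.4 to 3484 CPM in Nons and was lower in 6 of 8 (mean -0.37). The means of Cdx2, Krt8 and Krt18 were -0.22, -0.50 and -0.27. Elf5, at most 0.87 log2 CPM in any library, was higher in 8 of 8 (mean 1.39). The sum of neural genes ranged from 69.9 to 339 CPM in Nons and was higher in 4 of 8 (mean 0.11, 5 of 6 listed genes found). Its genes disagreed, with means of 2.07 for Sox1 (at most 3.32 log2 CPM), 0.72 for Tubb3 and -0.41 for Nes. Those of Pax6 and Neurod1 were 0.21 and 0.05. Cardiac genes reached at most 33.4 CPM in any library and were higher in 6 of 8 (mean 0.26). The sum of primitive endoderm genes ranged from 16.7 to 69.8 CPM in Nons and was lower in 6 of 8 (mean -0.25). Sox17, Gata4 and Dab2 had means of -0.88, -0.36 and -0.29, against 0.64 for Sox7 and 0.29 for Gata6. The fibroblast and feeder sum ranged from 11.8 to 229 CPM in Nons and was higher in 6 of 8 (mean 0.49). Its genes disagreed, with a median of the gene means of -0.15. Col1a2 (mean 2.82) and Thy1 (0.83) were higher in 8 of 8, beside 15.0% of tested genes with all 8 differences of one sign. The means of Col1a1, Col3a1, Acta2 and Pdgfra were 0.15, -0.62, -0.92 and -0.45. In these 8 lists 0 found genes had 0 reads in all 12 libraries of days 4 to 7.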
